A study of Macaca fascicularis with 16 samples.

Results

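The insulin-like growth factor (IGF) binding proteins IGFBP1, IGFBP3, IGFBP4 and IGFBP6, the IGF receptor IGF1R and the adaptors IRS1 and IRS2 were followed in mammary tissue of hormone-treated cynomolgus macaques. All probe sets that the array's annotation gives to exactly 1 of these 7 genes were taken, which were 11 of the 52865 probe sets, for 7 of the 14133 genes named by a single symbol. Tests were limited to probe sets brighter than 60.2, the median signal of the whole table, on at least 4 of the 16 arrays. That left 28704 probe sets, 10 of them for the IGF genes.

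The animals were 16 ovariectomized postmenopausal females of Macaca fascicularis, and each gave 1 array of total RNA from mammary tissue. There were 4 groups of 4 animals. The tibolone group received tibolone, a synthetic steroid, at 0.2 mg/kg, and its labels also carry OD14-HIGH. The CEE+MPA group received conjugated equine estrogens (CEE) at 0.042 mg/kg with the progestin medroxyprogesterone acetate (MPA) at 0.167 mg/kg. The CEE group received the same CEE dose alone, and the control group received no treatment. Every animal, control animals included, had no ovaries, so each treatment was set against a state without ovarian hormones. The length of treatment is not given in the sources used here.

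IGF1 and IGF2 are secreted growth factors that signal through the receptor tyrosine kinase encoded by IGF1R. IRS1 and IRS2 dock to the activated receptor and pass the signal to the PI3K/AKT and RAS/MAPK arms, while the binding proteins hold IGFs in solution and set how much of them reaches the receptor. In rodents, IGF1 made in mammary stroma acts together with estrogen in the growth of the ducts.

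Signals had been scaled to a common trimmed mean, 250.01 to 250.02 on the 16 arrays, and 48.6% to 51.8% of probe sets per array exceeded 60.2. Of 18 luminal epithelial markers 17 were on the array, and 13 exceeded 60.2 on all 16 arrays, such as KRT19 at 10401 to 24356 and GATA3 at 5035 to 9373. AGR2 exceeded it on 10 arrays, the progesterone receptor gene PGR on 4 and the estrogen receptor gene ESR1 on 2, with a highest ESR1 signal of 64.1. CDH1, encoding E-cadherin, exceeded it on 0, with a highest signal of 57.5. Each of these genes was read by its brightest probe set. Whether a dim one reflects little RNA or a probe set that reads it poorly was not tested. The arrays fell into 2 sets by their added poly-A control transcripts. The log2 signal of dap was 6.75 to 7.11 on 6 arrays, which were CEE+MPA replicates 1 and 4, CEE replicates 1 and 2, and control replicates 3 and 4. It was 7.47 to 8.35 on the other 10, which included all tibolone arrays. Skeletal muscle markers were highest on 4 arrays, tibolone replicates 2 and 3, CEE+MPA replicate 1 and control replicate 1. Calls that ended within a set or without those 4 arrays are named or counted beside the results. In bulk tissue, fewer cells of a type and less RNA per cell cannot be told apart.

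Fold changes below are differences of mean log2(signal + 16) with their standard error (SE). Their p values come from limma and are adjusted by Benjamini and Hochberg over all 28704 probe sets in a comparison, with a threshold of 0.05. Comparisons that have a group in common share its arrays and are not independent of each other.

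**Figure D1:**
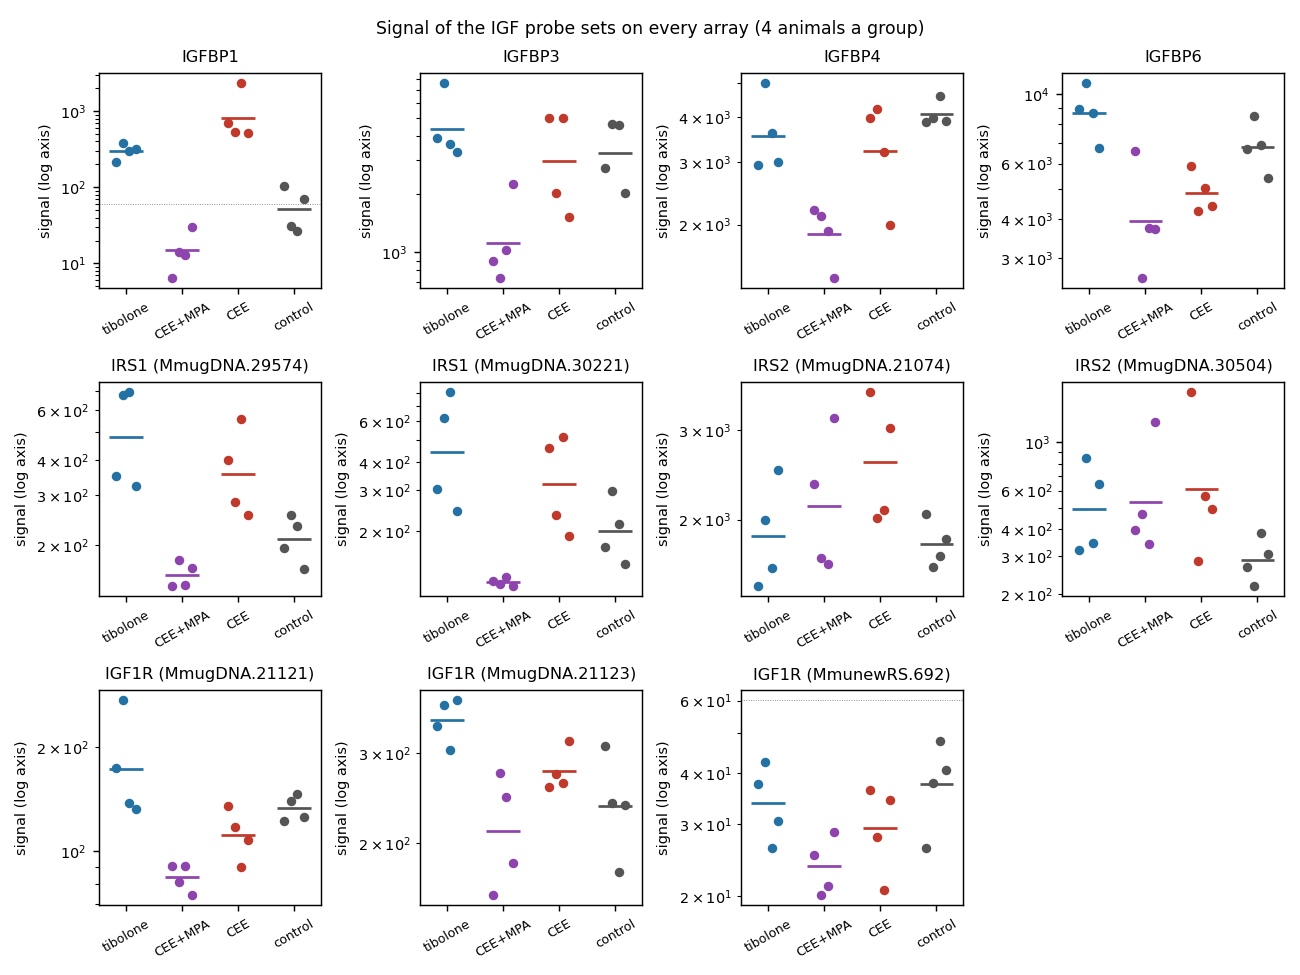
Signal of the 11 probe sets on every array, on log axes, by treatment group (4 animals a group). Points are arrays, bars are back-transformed means of log2(signal + 16), and the dotted line marks 60.2. IGFBP1 sits between 516 and 2342 on the CEE arrays and between 6.47 and 30.2 on the CEE+MPA arrays.

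IGFBP1, a binding protein best known from liver and from the decidua of the uterus, showed the largest single log2 difference of the 7 genes, between CEE+MPA and CEE. Its signal was 218, 384, 300.3 and 322 on the tibolone arrays, and 6.47, 14.2, 12.8 and 30.2 on the CEE+MPA arrays. It was 689, 530.2, 2342 and 516 on the CEE arrays, against 105, 30.6, 26.4 and 69.5 on the control arrays. Every CEE and every tibolone array lay above every control and every CEE+MPA array, and the CEE+MPA and control ranges overlapped. Such a separation from control, upward, was found for 4.21% of all tested probe sets with CEE and for 1.90% with tibolone. The 10 arrays above 60.2 were all 4 CEE, all 4 tibolone and 2 control arrays, so IGFBP1 passed the filter mainly through the groups in which it was high.

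In CEE-treated animals IGFBP1 averaged 1019 ± 885, against 57.8 ± 36.9 in control animals (SD, n = 4 each), a log2 difference of 3.63 ± 0.43 (SE, limma adjusted p = 0.00210). It was the 1 IGF probe set of the 10 to pass in this comparison, in which 0.0418% of all tested probe sets rose and 0.0732% changed either way. With MPA added to the same CEE dose, IGFBP1 averaged 15.9 ± 10.1, against 1019 ± 885 with CEE alone (SD, n = 4 each). This log2 difference of -4.76 ± 0.43 (limma adjusted p = 0.000212) had the smallest p of all 28704 probe sets. It was the 1 IGF probe set to pass, where 0.0209% of all probe sets did, all of them lower.

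All 4 CEE+MPA signals of IGFBP1 lay under 60.2, so the size of that fall rests on the offset added before taking logs. It was -5.78 with an offset of 1 and -3.48 with an offset of 64, and both passed the threshold. The dap sets left the IGFBP1 differences similar in size. CEE against control gave 3.90 within the high set and 3.37 within the low set (limma adjusted p = 0.118 and 0.286), and 3.63 with the set as a block (adjusted p = 0.00413). CEE+MPA against CEE gave -5.25 within the high set and -4.27 within the low set (limma adjusted p = 0.0564 and 0.119), and -4.76 with the block (adjusted p = 0.000447). Each group has 2 arrays in each set in these comparisons.

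Tibolone-treated animals averaged 306 ± 68.7 for IGFBP1, against 15.9 ± 10.1 in CEE+MPA animals (SD, n = 4 each), a log2 difference of 3.36 ± 0.43 (limma adjusted p = 0.00247). The size of this rise rests on the offset too. It was 4.34 with an offset of 1 and 2.20 with an offset of 64, and both passed. Against control the difference was 2.23 ± 0.43. There the groups did not overlap and the unadjusted p was 9.04e-05, yet the limma adjusted p was 0.124. Every tibolone array lay below every CEE array, and the difference of -1.40 ± 0.43 did not pass (limma adjusted p = 0.274). CEE+MPA against control gave -1.12 ± 0.43 (limma adjusted p = 0.122) with overlapping arrays.

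Because liver is a main source of IGFBP1, hepatocyte markers were read on the same arrays. Of 10 listed, 6 were on the array and 3 were tested. SERPINA1, encoding alpha-1 antitrypsin, was 715 to 1540 and APOB 67.6 to 135, above 60.2 on all 16 arrays, and APOC3 was 34.9 to 297, above it on 14. APOC3 averaged 210.1 ± 92.9 with CEE, against 83.4 ± 56.8 in control animals (SD, n = 4 each), with overlapping arrays. That log2 difference of 1.28 ± 0.40 ran the way of IGFBP1 and did not pass (limma unadjusted p = 0.00574, adjusted p = 0.234). SERPINA1 and APOB gave -0.13 ± 0.24 and -0.39 ± 0.15 for CEE against control and did not pass (limma adjusted p = 0.866 and 0.302). APOA1, FGA and FGB, which encode plasma proteins made by hepatocytes, stayed at or below 37.0 and never exceeded 60.2 on any of the 16 arrays. The summed signal of the 3 tested markers was 995 to 1593 with tibolone, 1205 to 1720 with CEE+MPA, 1089 to 1656 with CEE and 953 to 1704 in control animals, which overlap, and most of it is SERPINA1. Whether hepatocyte RNA had any part in the IGFBP1 differences was not tested. All 7 genes are in the RefSeq gene table. In the RefSeq annotation of assembly T2T-MFA8v1.1, IGFBP1 and IGFBP3 neighbour each other. IGFBP3 showed a log2 difference of -0.15 ± 0.44 for CEE against control (limma adjusted p = 0.921), where IGFBP1 showed 3.63.

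IGFBP3, the main IGF carrier in blood, was lowest in CEE+MPA animals. Its signal was 3945, 7600.1, 3657 and 3328 on the tibolone arrays and 895, 732, 1028 and 2247 on the CEE+MPA arrays. It was 5018, 2020.2, 4988 and 1522 on the CEE arrays, against 2722, 4633, 4609 and 2019 on the control arrays. Of the CEE+MPA arrays, 3 lay below every array of the other groups, and replicate 4 lay within the CEE and control ranges. Every tibolone array lay above every CEE+MPA array.

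IGFBP3 fell by 1.55 ± 0.44 on the log2 scale in CEE+MPA against control animals (limma adjusted p = 0.0460). It was 1 of 2 IGF probe sets that fell in this comparison, in which 4.38% of all tested probe sets fell and 6.34% changed either way. Leaving out any 1 of 6 arrays ended that call, CEE+MPA replicates 1, 2 or 3 and control replicates 1, 2 or 3, with adjusted p of IGFBP3 between 0.0816 and 0.146. In all it ended under 14 of 25 alternatives. The IGFBP3 difference was -2.01 within the high dap set and -1.10 within the low set (limma adjusted p = 0.0905 and 0.622), -1.55 with the set as a block (adjusted p = 0.0467), and -1.54 without the 4 arrays of high skeletal muscle signal (adjusted p = 0.123). Tibolone against CEE+MPA gave a log2 rise of 1.96 ± 0.44 (limma adjusted p = 0.0229). Without CEE+MPA replicates 1, 2 or 3 or tibolone replicates 2 or 3 in turn, its adjusted p was 0.0530 to 0.0796. CEE+MPA against CEE gave -1.40 ± 0.44, which did not pass (limma adjusted p = 0.438).

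IGFBP4, which inhibits IGF action and is cleaved by the protease PAPPA, was the other binding protein that fell with CEE+MPA. Its signal was 2941, 5002, 3624 and 2993 on the tibolone arrays and 2194, 2119, 1914 and 1417 on the CEE+MPA arrays. It was 3993, 4231, 3198 and 1997 on the CEE arrays, against 3895, 3997, 4603 and 3902 on the control arrays. Every CEE+MPA array lay below every control array and below every tibolone array, while CEE replicate 4 lay within the CEE+MPA range.

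IGFBP4 averaged 1911 ± 350.1 with CEE+MPA, against 4099 ± 339 in control animals (SD, n = 4 each), a log2 difference of -1.11 ± 0.23 (limma adjusted p = 0.0140). It stayed past the threshold with any 1 array left out. Within the high dap set it was -0.96 and within the low set -1.26 (limma adjusted p = 0.0720 and 0.258), and with the set as a block -1.11 (adjusted p = 0.0135). Tibolone against CEE+MPA gave 0.91 ± 0.23 (limma adjusted p = 0.0334). That call ended on leaving out any 1 of 6 arrays, CEE+MPA replicates 1 to 4 or tibolone replicates 2 or 3, with adjusted p of 0.0510 to 0.108.

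IGFBP6, which binds IGF2 in preference to IGF1, was highest in tibolone-treated animals. Its signal was 8956, 10844, 8728 and 6727 on the tibolone arrays and 6586, 2599, 3743 and 3729 on the CEE+MPA arrays. It was 5885, 4247, 5003 and 4401 on the CEE arrays, against 6676, 8500 and 6872 on control replicates 1 to 3 and 5407 on replicate 4. Every tibolone array lay above every CEE and every CEE+MPA array, and the tibolone and control ranges overlapped.

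Tibolone against CEE+MPA gave a log2 rise of 1.14 ± 0.24 for IGFBP6 (limma adjusted p = 0.0192). Without tibolone replicates 2 or 3 or CEE+MPA replicate 3 in turn, the adjusted p was 0.0718, 0.0525 and 0.0509. Tibolone against CEE gave 0.84 ± 0.24 with separate groups and did not pass (limma adjusted p = 0.258). CEE+MPA against control gave -0.78 ± 0.24 (limma adjusted p = 0.0592), where CEE+MPA replicate 1 lay inside the control range. Without that array the difference was -1.03 and passed (adjusted p = 0.0141), as it did without control replicate 4 (-0.89, adjusted p = 0.0485). The IGFBP6 difference was -1.27 within the high dap set and -0.30 within the low set (limma adjusted p = 0.0395 and 0.794), -0.78 with the set as a block (adjusted p = 0.0569), and -1.04 without the 4 arrays of high skeletal muscle signal (adjusted p = 0.0319).

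The receptor IGF1R was read by 3 probe sets. The dimmest, MmunewRS.692.1.S1_at, stayed between 20.1 and 47.8, under 60.2 on all 16 arrays, and was not tested. MmugDNA.21121.1.S1_at gave 175, 275, 137 and 133 on the tibolone arrays and 90.2, 81.1, 90.5 and 74.4 on the CEE+MPA arrays. It gave 135, 117, 89.7 and 107 on the CEE arrays, against 122, 139.9, 146 and 126 on the control arrays. Every CEE+MPA array lay below every tibolone and every control array, and CEE replicate 3 lay within the CEE+MPA range.

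For this IGF1R probe set, tibolone against CEE+MPA gave a log2 rise of 0.92 ± 0.18 (limma adjusted p = 0.0165). CEE+MPA against control gave -0.58 ± 0.18, which did not pass although the groups were separate (limma adjusted p = 0.0700). MmugDNA.21123.1.S1_at gave 339.97, 373, 304 and 382 with tibolone, 158, 275, 246 and 182 with CEE+MPA, 258, 273, 263 and 318 with CEE, and 310.3, 240.1, 175 and 237 in control animals. Every tibolone array lay above every CEE+MPA array, with a log2 rise of 0.69 ± 0.18 (limma adjusted p = 0.0390). That smaller rise ended under 15 of 24 alternatives, among them leaving out any 1 of 6 arrays (CEE+MPA replicates 1, 3 or 4, or tibolone replicates 1, 2 or 3), with adjusted p of 0.0576 to 0.109.

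IRS1, the adaptor that couples the receptor to PI3K, was read by 2 probe sets, which passed in the same comparison. MmugDNA.29574.1.S1_at gave 349.5, 678, 698 and 323 on the tibolone arrays and 143, 176, 144 and 166 on the CEE+MPA arrays. It gave 401, 284, 560 and 254 on the CEE arrays, against 195, 255, 234 and 164 on the control arrays. Every tibolone array lay above every CEE+MPA and every control array, and every CEE array lay above every CEE+MPA array. Tibolone replicates 2 and 3 were the highest of all 16.

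This IRS1 probe set rose by 1.53 ± 0.27 on the log2 scale with tibolone against CEE+MPA (limma adjusted p = 0.00962). Tibolone against control gave 1.14 ± 0.27 (limma adjusted p = 0.374) and CEE+MPA against CEE gave -1.11 ± 0.27 (limma adjusted p = 0.269), both with separate groups and neither past the threshold. CEE against control gave 0.73 ± 0.27 with overlapping arrays (limma adjusted p = 0.295). MmugDNA.30221.1.S1_at gave 305, 623, 810 and 243 with tibolone, 121, 117, 126 and 114 with CEE+MPA, 461, 234, 512 and 190.04 with CEE, and 169.6, 298, 214 and 143 in control animals. The CEE+MPA arrays lay below every array of the other groups, and tibolone against CEE+MPA gave 1.75 ± 0.36 (limma adjusted p = 0.0183). Without tibolone replicate 2 or 3 the adjusted p of this IRS1 probe set was 0.0702 or 0.0576. Without the 4 arrays of high skeletal muscle signal, tibolone against control gave 0.61 and 0.35 for the 2 IRS1 probe sets (limma adjusted p = 0.659 and 0.828).

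IRS2, the second adaptor, passed in no comparison with either probe set. MmugDNA.21074.1.S1_at ranged from 1477 to 2507 with tibolone, 1633 to 3179 with CEE+MPA and 2013 to 3582 with CEE, against 1610.2 to 2049 in control animals, and these ranges overlapped. Its largest difference from control was 0.54 ± 0.24 with CEE (95% interval 0.03 to 1.04, limma adjusted p = 0.376). MmugDNA.30504.1.S1_at gave 0.75 ± 0.48 with tibolone, 0.85 ± 0.48 with CEE+MPA and 1.04 ± 0.48 with CEE against control, with limma adjusted p of 0.913, 0.303 and 0.391. Its highest arrays were CEE replicate 1 at 1717 and CEE+MPA replicate 4 at 1239, and the other CEE arrays lay between 285 and 564.

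**Figure D2:**
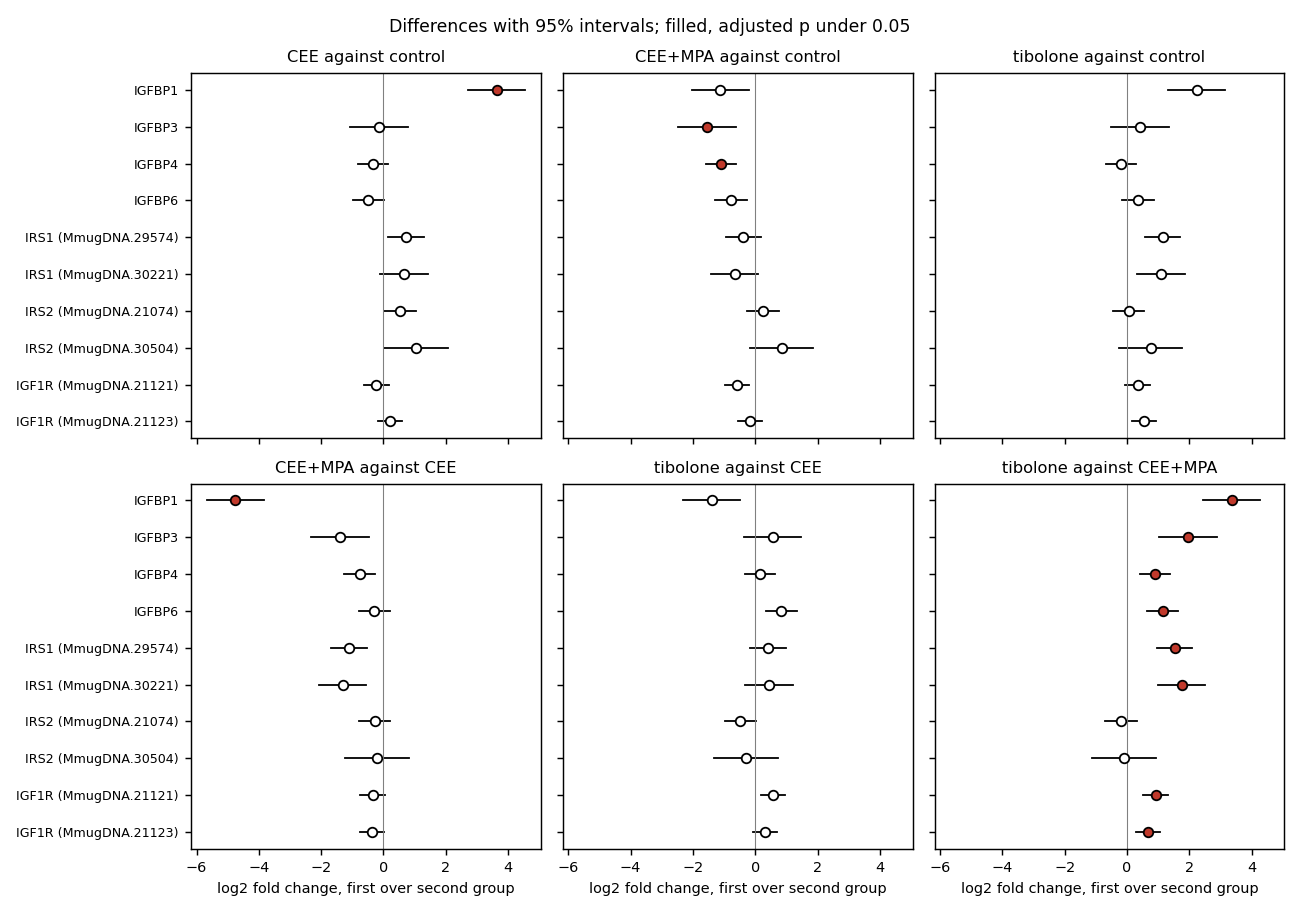
Log2 fold change of the 10 tested probe sets in the 6 comparisons, first group over second, with 95% intervals from limma. Filled points passed an adjusted p of 0.05: 1 for CEE against control, 2 for CEE+MPA against control, 1 for CEE+MPA against CEE and 8 for tibolone against CEE+MPA.

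Taking the 10 probe sets together, tibolone against CEE+MPA held most of the calls. There 8 of 10 rose, in IGFBP1, IGFBP3, IGFBP4, IGFBP6, IRS1 and IGF1R, and none fell, where 3.78% of all tested probe sets rose and 6.34% changed either way. The same 8 had every tibolone array above every CEE+MPA array, which 7.56% of all tested probe sets had. Their median log2 difference over the 10 was 1.03, beside 0.04 over all tested probe sets. The members were chosen with earlier results of these data known, so values over all probe sets are set beside them as description, not as a test. IRS1 and IGF1R are each counted through more than a single probe set. For CEE+MPA against control the median was -0.62, beside -0.01, and 3 of 10 had every CEE+MPA array below every control array, which 9.42% of all tested probe sets had.

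Tibolone against control and tibolone against CEE had 0 IGF probe sets past the threshold by limma. Over all tested probe sets 0.0244% and 0.00697% passed. At an unadjusted p under 0.05 there were 4 of 10 against control, where 5.41% of all tested probe sets were, and 3 of 10 against CEE, where 11.9% were. Groups that did not overlap were IGFBP1 and 1 IRS1 probe set higher than control with tibolone, and against CEE, IGFBP6 higher and IGFBP1 lower. Over all tested probe sets 1.90% were separately higher with tibolone than in control animals. Against CEE 2.83% were separately higher and 2.60% separately lower with tibolone. The median log2 difference over the 10 was 0.47 for tibolone against control, beside 0.01 over all, and 0.36 for tibolone against CEE, beside 0.01. For CEE against control it was 0.38, beside 0.00, and for CEE+MPA against CEE -0.57, beside -0.02. In the last comparison IGFBP1 and both IRS1 probe sets, 3 of 10, had every CEE+MPA array below every CEE array, which 3.17% of all tested probe sets had.

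The tibolone against CEE+MPA calls depended on which arrays were in the fit. Tibolone replicates 2 and 3 had skeletal muscle means of 2.71 and 1.76 (log2, centred over the 16 arrays), CEE+MPA replicate 1 had 1.56 and control replicate 1 had 2.92. Without these 4 arrays 0 of 10 passed, on 2 tibolone and 3 CEE+MPA arrays, although all 8 probe sets stayed higher, by 0.61 to 3.04. IGFBP6 alone of the 8 had a larger difference there, 1.23 ± 0.25 beside 1.14 ± 0.24 with all arrays. It still did not pass (limma adjusted p = 0.153). Such fits hold fewer arrays, and the share of all probe sets that passed in them is not given here. With the skeletal muscle mean as a covariate 6 passed. Within the high dap set, which holds 4 tibolone and 2 CEE+MPA arrays, 2 passed, IGFBP1 at 3.42 (limma adjusted p = 0.0201) and IGFBP6 at 1.47 (limma adjusted p = 0.0249), and with the set as a block 7 passed. Without the 4 arrays the IRS1 differences were 0.99 and 1.09 (limma adjusted p = 0.325 and 0.416), beside 1.53 and 1.75 with all arrays.

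**Figure D3:**
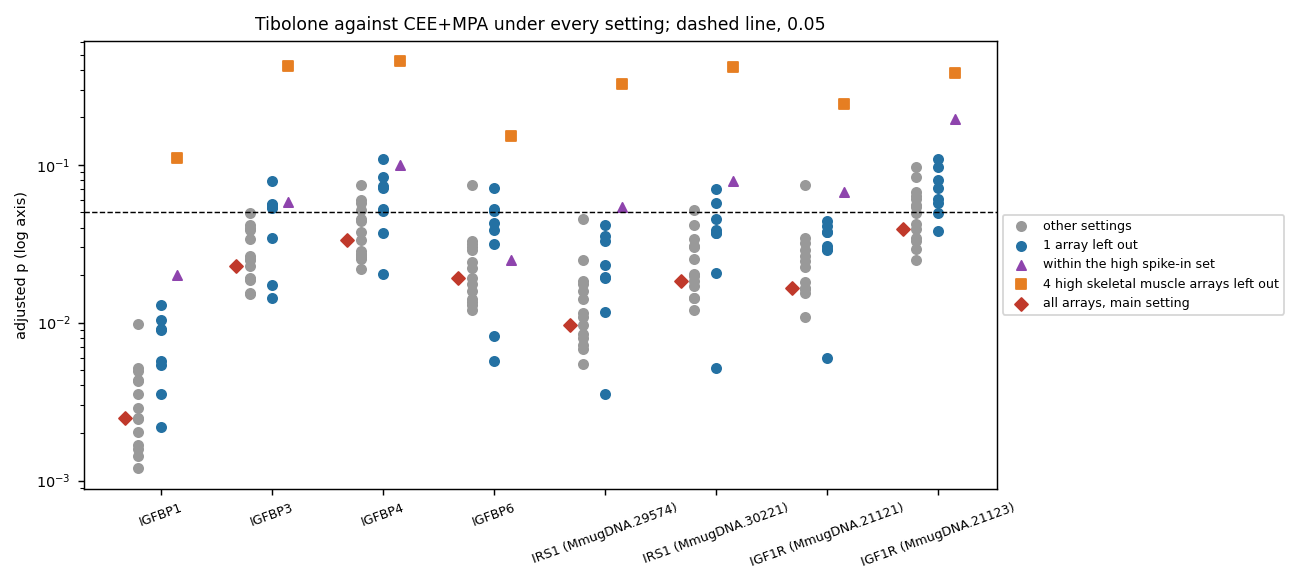
Adjusted p (log axis) of the 8 probe sets that rose with tibolone against CEE+MPA, with all arrays and under each alternative; the dashed line is 0.05. All 8 lie above the line without the 4 arrays of high skeletal muscle signal, and IGFBP1 lies below it under each of the other 23 alternatives.

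Markers of other cell types moved in the same comparisons. Of 14 fibroblast and matrix markers 12 were tested, and their summed signal was 62499 to 67551 with tibolone, 49748 to 62884 with CEE+MPA, 51048 to 63584 with CEE and 63679 to 79815 in control animals. Of these 12, 6 fell with CEE+MPA against control, and 5 rose with tibolone against CEE+MPA. The largest fall of the 12 was that of FBLN1, encoding the matrix protein fibulin 1, at -2.52 (limma adjusted p = 0.000342). MFAP5 and COL3A1 ran the other way with CEE+MPA against control and did not pass. MFAP5 gave 0.47 with every CEE+MPA array above every control array (limma adjusted p = 0.0626), and COL3A1 gave 0.20 (limma adjusted p = 0.503). Of 10 smooth muscle markers 8 were tested, with sums of 13587 to 22511 with tibolone, 7940 to 13295 with CEE+MPA, 16270 to 16773 with CEE and 16415 to 23863 in control animals. Of these 8, 7 fell with CEE+MPA against control and 5 rose with tibolone against CEE+MPA. Over all tested probe sets 4.38% fell in the former comparison and 3.78% rose in the latter, and 6.34% changed either way in each.

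Other marker lists moved less evenly. Their counts stand beside the same shares over all tested probe sets, 4.38% lower with CEE+MPA against control and 3.78% higher with tibolone against CEE+MPA. Of 10 basal and myoepithelial markers 6 were tested, with sums of 4968 to 7038 with tibolone, 3119 to 4772 with CEE+MPA, 4597 to 6141 with CEE and 5602 to 6139 in control animals, and 3 fell with CEE+MPA against control and 3 rose with tibolone against CEE+MPA. The 3 that fell were ACTG2 (-2.03), TRIM29 (-1.60) and CNN1 (-1.28). In that comparison ITGA6 ran the other way at 0.73 and did not pass (limma adjusted p = 0.0603). TP63 gave 0.09 and OXTR -0.68, which did not pass either (limma adjusted p = 0.760 and 0.151). Of 12 endothelial markers 10 were tested, with sums of 8008 to 11849 with tibolone, 5838 to 7162 with CEE+MPA, 6904 to 8599 with CEE and 8292 to 12069 in control animals, and 3 fell with CEE+MPA against control and 2 rose with tibolone against CEE+MPA. Of 16 adipocyte markers 12 were tested, with sums of 17681 to 47351 with tibolone, 23652 to 36796 with CEE+MPA, 18581 to 33856 with CEE and 25992 to 44817 in control animals, with 2 lower and 2 higher in those comparisons. Of 18 luminal markers 15 were tested, with sums of 39311 to 67153 with tibolone, 60656 to 70873 with CEE+MPA, 57645 to 62674 with CEE and 51415 to 56445 in control animals. Of these, 1 rose with CEE+MPA against control, and 1 rose and 1 fell with tibolone against CEE+MPA, where 6.34% of all tested probe sets changed either way in each. The luminal sums lean on bright markers. KRT19 averaged 22000 with CEE+MPA against 14237 in control animals, and ELF5 14736 against 7786. The luminal list median for CEE+MPA against control was -0.04, and KRT7 ran lower at -1.15 (limma adjusted p = 0.0644). Of 14 skeletal muscle markers 9 were tested, with sums of 811 to 12282 with tibolone, 623 to 5308 with CEE+MPA, 508 to 712 with CEE and 849.7 to 15617 in control animals, and by limma none passed in either comparison, with 1 and 0 at an unadjusted p under 0.05. The part of these cell types in the IGF differences was not tested beyond the skeletal muscle and luminal covariates. With the luminal mean as a covariate 6 of the 8 tibolone against CEE+MPA calls passed.

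The wider pathway was read from 81 other genes, of which 53 were tested, each by its brightest tested probe set. The shares beside these counts are over all tested probe sets, which include several for some genes and some with no gene symbol. They are thus not shares of genes. With CEE+MPA against control 4 of 53 passed, 1 higher and 3 lower, where 6.34% of all tested probe sets changed either way. With tibolone against CEE+MPA 3 of 53 rose, where 3.78% of all did. With CEE against control 1 fell, where 0.0732% of all changed either way, and 0 passed by limma in the other comparisons. Counts at an unadjusted p under 0.05 were 17 of 53 for CEE+MPA against control, where 24.1% of all tested probe sets were under it, and 20 for tibolone against CEE+MPA, where 25.1% were. They were 7 for CEE against control (12.5% of all), 4 for tibolone against control (5.41%), 5 for CEE+MPA against CEE (7.72%) and 10 for tibolone against CEE (11.9%). The list median for tibolone against CEE+MPA was 0.13, beside 0.04 over all tested probe sets, and for CEE+MPA against control -0.08, beside -0.01.

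The ligands did not pass in any comparison. IGF1 was 3419, 6109.6, 3813 and 2041 on the tibolone arrays and 2676, 2229, 1583 and 1202 on the CEE+MPA arrays. It was 4359, 4435, 2852 and 2288 on the CEE arrays, against 2171, 3141, 2436 and 3303 on the control arrays. The groups overlapped, and tibolone against CEE+MPA gave 0.95 ± 0.32 for IGF1 (limma adjusted p = 0.0813). IGF2 averaged 335 ± 23.8 with tibolone, 319.97 ± 48.2 with CEE+MPA and 297 ± 49.4 with CEE, against 315 ± 47.0 in control animals (SD, n = 4 each), and its differences lay within that spread. Of 4 receptor genes 2 were tested (IGF2R and GHR) and of 8 other binding protein genes 4 (IGFBP2, IGFBP5, IGFBP7 and IGF2BP3, the last of which binds IGF2 mRNA rather than the protein), and none passed by limma. In each comparison 0 to 1 gene of either list had an unadjusted p under 0.05, where 5.41% to 25.1% of all tested probe sets did. INSR, the insulin receptor, was not tested.

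HTRA1, a secreted serine protease with an IGFBP-like domain that can cleave binding proteins, moved most among the proteases and inhibitors, of which 5 of 9 were tested. It was 3357, 3772, 3631 and 3109.8 on the tibolone arrays and 1827, 1743, 1882 and 1519.9 on the CEE+MPA arrays. It was 2459.5, 2660.1, 2874 and 2077 on the CEE arrays, against 6077, 5480, 4553 and 4147 on the control arrays. The 4 groups did not overlap at all, with control highest, then tibolone, CEE and CEE+MPA. Of all tested probe sets 9.42% had CEE+MPA separately below control and 3.17% below CEE. Tibolone was separately above CEE+MPA for 7.56% and above CEE for 2.83%. HTRA1 fell by 1.52 ± 0.15 with CEE+MPA (limma adjusted p = 0.000342) and by 0.998 ± 0.15 with CEE (limma adjusted p = 0.0161) against control, and rose by 0.99 ± 0.15 with tibolone against CEE+MPA (limma adjusted p = 0.00435). Its other steps did not pass. They were -0.53 for tibolone against control, -0.52 for CEE+MPA against CEE and 0.47 for tibolone against CEE (limma adjusted p = 0.649, 0.367 and 0.278). CTSD, the lysosomal protease cathepsin D, averaged 2135 ± 322 with CEE+MPA, against 4346 ± 1672 in control animals (SD, n = 4 each), a log2 difference of -0.95 ± 0.23 (limma adjusted p = 0.0292). CEE against control gave -0.77 ± 0.23 for CTSD and did not pass (limma adjusted p = 0.230).

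Downstream of the receptor, 1 of 8 tested adaptor genes, 0 of 21 genes of the PI3K/AKT arm and 1 of 8 of the RAS/MAPK arm passed in any comparison by limma. Over all tested probe sets 6.34% passed for CEE+MPA against control and for tibolone against CEE+MPA, and at most 0.0732% in any other comparison. In the PI3K/AKT arm 0 to 7 genes per comparison had an unadjusted p under 0.05. The 7 of 21 were for CEE+MPA against control, where 24.1% of all tested probe sets were under it. The 0 were for tibolone against control, where 5.41% were. DOK1, a docking protein that dampens RAS signalling, averaged 199.9 ± 48.1 with tibolone, against 111 ± 30.4 with CEE+MPA (SD, n = 4 each), a log2 difference of 0.77 ± 0.19 (limma adjusted p = 0.0294). Tibolone against CEE gave 0.66 ± 0.19 for DOK1 with separate groups and did not pass (limma adjusted p = 0.256). MAPK3, the kinase ERK1, averaged 831 ± 58.5 with CEE+MPA, against 1311 ± 278 in control animals (SD, n = 4 each), a difference of -0.63 ± 0.16 (limma adjusted p = 0.0332). CEE against control gave -0.40 ± 0.16 for MAPK3 and did not pass (limma adjusted p = 0.331). Of 3 tested feedback genes, SOCS1 averaged 369.6 ± 71.5 with tibolone, against 179 ± 45.7 with CEE+MPA (SD, n = 4 each), a difference of 0.99 ± 0.18 (limma adjusted p = 0.0119). Tibolone against CEE gave 0.84 ± 0.18 for SOCS1 with separate groups and did not pass (limma adjusted p = 0.173). CISH, a target of STAT5 in cytokine signalling, averaged 2386 ± 784 with CEE+MPA, against 695 ± 334 in control animals (SD, n = 4 each), a difference of 1.83 ± 0.39 (limma adjusted p = 0.0157). With CEE alone CISH averaged 2255 ± 861, with every array above every control array. That difference of 1.74 ± 0.39 did not pass (limma adjusted p = 0.1035). CEE+MPA against CEE gave 0.09 ± 0.39 for CISH (limma adjusted p = 0.979), and tibolone against control gave 0.90 ± 0.39 (limma adjusted p = 0.913).

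**Figure D4:**
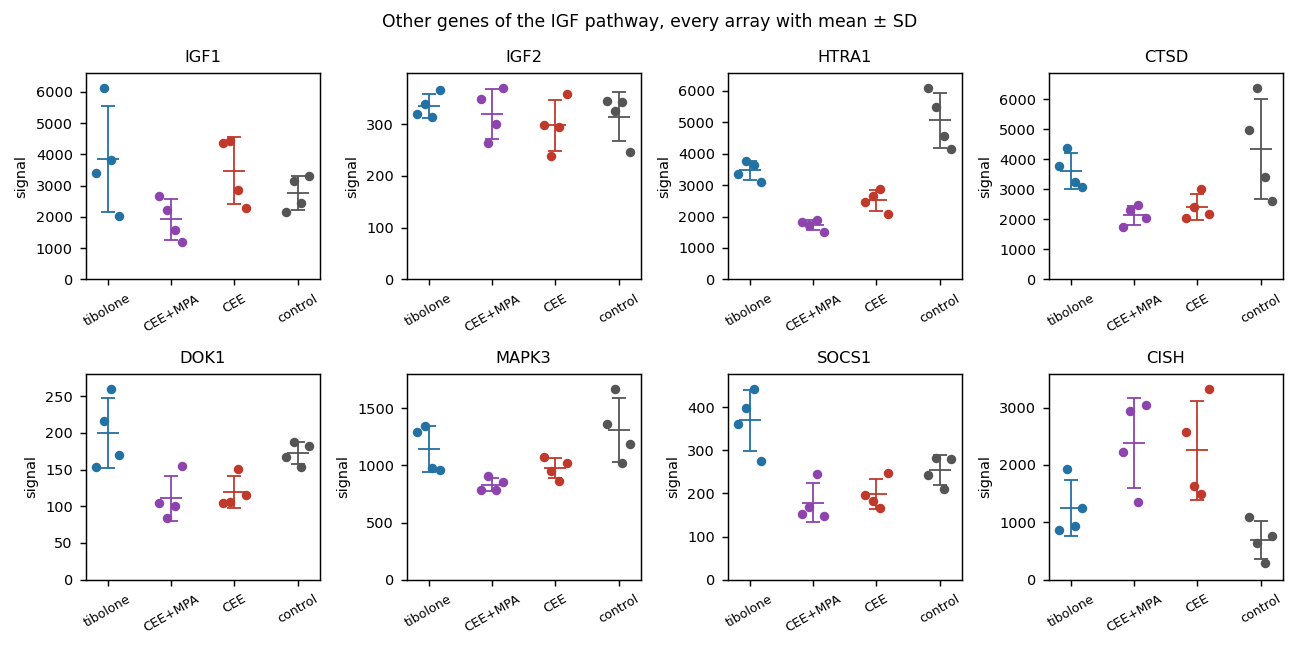
Signal of the 8 named pathway genes on every array, on linear axes from 0, by treatment group. Points are arrays and bars are means ± SD (n = 4 animals). HTRA1 lies between 1519.9 and 1882 on the CEE+MPA arrays and between 4147 and 6077 on the control arrays, while IGF2 overlaps in all groups.

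Genes whose pattern over the 16 arrays was nearest to each member were ranked by the root mean square difference of centred log2 values, as a description. Nearest to IGFBP1 were TFF3 at 1.06, GREB1 at 1.14 and KLK12 at 1.28, against a standard deviation of 2.01 for IGFBP1 itself. TFF3 and GREB1 are estrogen-induced genes in human breast cancer cells. GREB1 averaged 183 ± 38.2 with tibolone, 67.1 ± 23.2 with CEE+MPA and 394 ± 118 with CEE, against 29.1 ± 8.95 in control animals (SD, n = 4 each). Unlike IGFBP1, its CEE+MPA arrays at 43.1 to 97.7 lay above every control array, which were 21.7 to 41.4.

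The other members had smaller ranges and nearer neighbours. IGFBP3 was nearest to FOXA1, a luminal transcription factor, at 0.45, with DACH1 and CAMK2N1 next, against its own standard deviation of 0.98. IGFBP4 was nearest to PTGFRN at 0.19, then JAK2 and ROBO1, against 0.53. IGFBP6 was nearest to COL6A2, a subunit of type VI collagen, at 0.23, then EXOSC7 and GAS7, against 0.55. IRS1 was nearest to CDK2AP1 at 0.38, then DACH1 and CXCL13, against 0.72, and IGF1R was nearest to OTUD6A at 0.17, then ZNF609 and TAF6, against 0.35.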

How the data were processed

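Per the labels' protocols, RNA was prepared with Tri-reagent and an RNeasy kit and carried a biotin label. It was read on rhesus macaque arrays from Affymetrix. The authors deposited linear intensity (signal) per probe set, which the values show to be scaled to a common mean after trimming 2% at each end. GCOS and Affymetrix Expression Console were used, per the submitters' processing notes; the sources used here give neither versions nor algorithm. Gene symbols came from the platform annotation: 24969 probe sets had 1 symbol, 361 several and 27535 none. No detection calls were used.

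Of the 52865 probe sets, 99 Affymetrix controls were left out. Signals were transformed as log2(signal + 16) and 1 limma model of 4 group means was fitted to all 16 arrays, with 6 comparisons. The offset understates changes of dim probe sets. Arrays have no sequencing depth, and precision is limited by how many there are. Replicates are different animals numbered in the order of deposit, and p values measure the spread between these animals. Members, lists of pathway and marker genes, and alternatives were chosen with earlier results of these data known. All member probe sets are described. Pathway genes are named if past the threshold in any comparison (at most 6 a list), plus IGF1, IGF2 and INSR, and the 3 nearest genes are named for each member past it. FBLN1, MFAP5, COL3A1, KRT19, KRT7, ELF5, GATA3, AGR2, PGR, ESR1, CDH1 and the 6 hepatocyte markers were chosen after their values were seen. So were ACTG2, TRIM29, CNN1, ITGA6, TP63 and OXTR.

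Alternatives were offsets of 1 and 64, quantile normalization, median centring, no filter, a filter at the 75th percentile, a trended prior, array weights, a fit of just the 2 groups in question, a single probe set for each gene, a threshold of 0.10, the dap and thr spike-in set as a block and within each set, skeletal muscle and luminal covariates, omission of the 4 arrays highest in skeletal muscle markers, and each array left out. The fit was tested on simulated data. Tests ran in limma 3.58.1 under R 4.3.3, and figures were drawn with matplotlib 3.10.9 under Python 3.11.15.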

Additional observations from a re-analysis of the deposited data

Results flagged for a closer look

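IGFBP4 on control replicate 3 stood apart from the rest of its group. Its signal there was 4602.5, while the other 3 control arrays lay between 3894.6 and 3997.3. It was 1 of 44 groups of 4 arrays examined in this way, and chance alone sets 1 value apart in about 1 in 20 groups. IGFBP4 stayed lower with CEE+MPA against control, and past the threshold, with any 1 array left out.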

How the results depend on the processing

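Over 60 member comparisons and 1446 alternative values, 1337 kept their direction and side of the threshold and 25 changed sign, all of them of differences that had not passed. Counts of IGF probe sets past the threshold moved as follows. For CEE against control (1) and for CEE+MPA against CEE (1) the count was 0 within the low and 0 within the high spike-in set, and 1 to 1 with an array left out. For CEE+MPA against control (2) it was 1 with an offset of 1, with median centring, with no filter and with the skeletal muscle or luminal covariate, 0 within the low set, and 4 with array weights or a threshold of 0.10. Within the high set it was 1 as well, but that was IGFBP6, and neither IGFBP3 nor IGFBP4 passed there. With an array left out it was 1 to 3. For tibolone against CEE+MPA (8) it was 3 with only the groups compared, 2 within the high set and 0 without the 4 arrays high in skeletal muscle markers, and 3 to 8 with an array left out. It was 3 without tibolone replicate 2 or 3, 4 without CEE+MPA replicate 3 and 5 without CEE+MPA replicate 1. The cause was not tested. Tibolone against control and against CEE had 0 throughout. Log2 differences changed sign for IRS2 (MmugDNA.30504.1.S1_at), tibolone against CEE+MPA, to 0.13 with array weights, 0.19 with the spike-in set as a block and 0.30 within the high set, and for IRS2 (MmugDNA.21074.1.S1_at) to 0.025 for CEE+MPA against CEE within the low set, and within the high set to -0.13 for CEE+MPA against control and 0.16 for tibolone against CEE+MPA. IGFBP3 was 0.062 for CEE against control within the low set. For tibolone against CEE, IGFBP4 was -0.015 with the skeletal muscle covariate. Without the 4 arrays, tibolone against CEE gave -0.12 for IGFBP4 and -0.086 and -0.23 for the IRS1 probe sets, and CEE+MPA against control gave 0.10 for IGF1R (MmugDNA.21123.1.S1_at). With an array left out, IGFBP3 for CEE against control ran from -0.40 to 0.17, IGFBP4 for tibolone against CEE from -0.089 to 0.27, and IRS2 (MmugDNA.21074.1.S1_at) for tibolone against control from -0.090 to 0.16. IRS2 (MmugDNA.30504.1.S1_at) ran from -0.60 to 0.29 for CEE+MPA against CEE, -0.64 to 0.20 for tibolone against CEE and -0.34 to 0.31 for tibolone against CEE+MPA. No tibolone array is in the low set, so tibolone comparisons have no value within it. No paired analysis was possible because no animal was in more than 1 group and the labels match no animals across groups.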
